A study of Homo sapiens with 4 samples.

Results

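Solute carriers, pumps and channels are the membrane proteins that move sugars, amino acids, ions, drugs and lipids across the membranes of a cell. Solute carriers (SLC) let a solute pass or couple its movement to an ion gradient, pumps and ABC proteins spend ATP, and channels open a pore. In the colon such proteins absorb salt and water, take up nutrients, secrete chloride and expel foreign compounds. The genes described here were chosen by the symbol printed in the spot tables: SLC, SLCO, ATP-driven pumps, the ABC families other than ABCC, aquaporins, the voltage-gated and TRP channel families, and chloride and VDAC channels. The rule found 42 genes of 1856 probes, each with 1 accession and a pair of spots on each array. They were 27 SLC genes and 15 pumps, ABC proteins and channels, and no potassium channel, VDAC, SLCO or ATP synthase gene was among them.

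The cells were SW480, a line established from a human colon adenocarcinoma and the only cell model here, and their RNA was hybridised to oligonucleotide arrays read in 2 colours. Cells were kept in DMEM F12 with fetal bovine serum and given either a Bacillus mojavensis postbiotic (BM), made from bacteria grown in MRS medium, or MRS medium as the control (MRS), each at 15% (v/v) during 10 h. The groups follow the sample titles, since the treatment field names MRS medium for both. Each group held 2 cultures, which per the series' design text were grown and harvested separately, and array 1 held MRS 1 and BM 1 while array 2 held MRS 2 and BM 2. MRS carried Alexa Fluor 555 and BM Alexa Fluor 647 on both arrays, so dye and treatment cannot be told apart in any ratio below.

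The median raw intensity of a probe was between 1725 and 2311 in the 4 samples, over median local backgrounds between 49.8 and 101.9, and the number of arrays limits the precision. Averaged over their spots, all 42 genes reached 1.5 times their local background in at least 1 channel on both arrays. The same held for 1845 of the 1856 probes, and no spot of the 42 was saturated. All 8 colon epithelial markers on the array, among them CEACAM5, CDH17, KRT19 and LGALS4, also reached it in every sample. So did all 5 leukocyte markers, including PTPRC, and all 5 fibroblast markers, so a signal above background does not by itself show that SW480 cells use a gene. The summed raw intensity of the leukocyte markers was 24675 and 20630 in MRS and 21162 and 17973 in BM. That of the fibroblast markers was 42405 and 51038 in MRS and 43902 and 59727 in BM. These sums were not normalised, and the median probe also had 2057 and 2311 in MRS against 1725 and 1986 in BM. After normalisation within each array, the median log2 ratio of BM over MRS was -0.014 for leukocyte and -0.043 for fibroblast markers. For colon epithelial markers it was 0.042. The part of these markers in the ratios below was not tested.

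The question was whether transport genes have another level in cells given BM than in cells given MRS. The lowest ratio belonged to SLC22A3, an organic cation and monoamine carrier, and the 3 genes next to it in size were the sugar carrier SLC2A8, the chloride-loading cotransporter SLC12A2 and the folate carrier SLC19A1, all lower in BM on both arrays. On the other side stood TRPM5, a calcium-activated cation channel of taste and tuft cells, higher in BM on both. None of the 42 passed limma's test at an adjusted p of 0.05 (Benjamini-Hochberg over 1856 probes), against 0.0% of all probes, and the smallest adjusted p was 0.571. Of the 42, 4 had an unadjusted p under 0.05 in the lower direction (9.52%, against 3.29% of all probes) and 1 in the higher direction (2.38%, against 3.29%), or 5 in either direction against 6.57% of all probes. The mean ratios of the 42 ran from -0.39 to 0.16 on the log2 scale. The 95% intervals of all 42 lay within 1.5-fold either way, as did those of 1851 of the 1856 probes. Most of the degrees of freedom behind the intervals come from the other probes, and a dye effect is not covered.

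**Figure D1:**
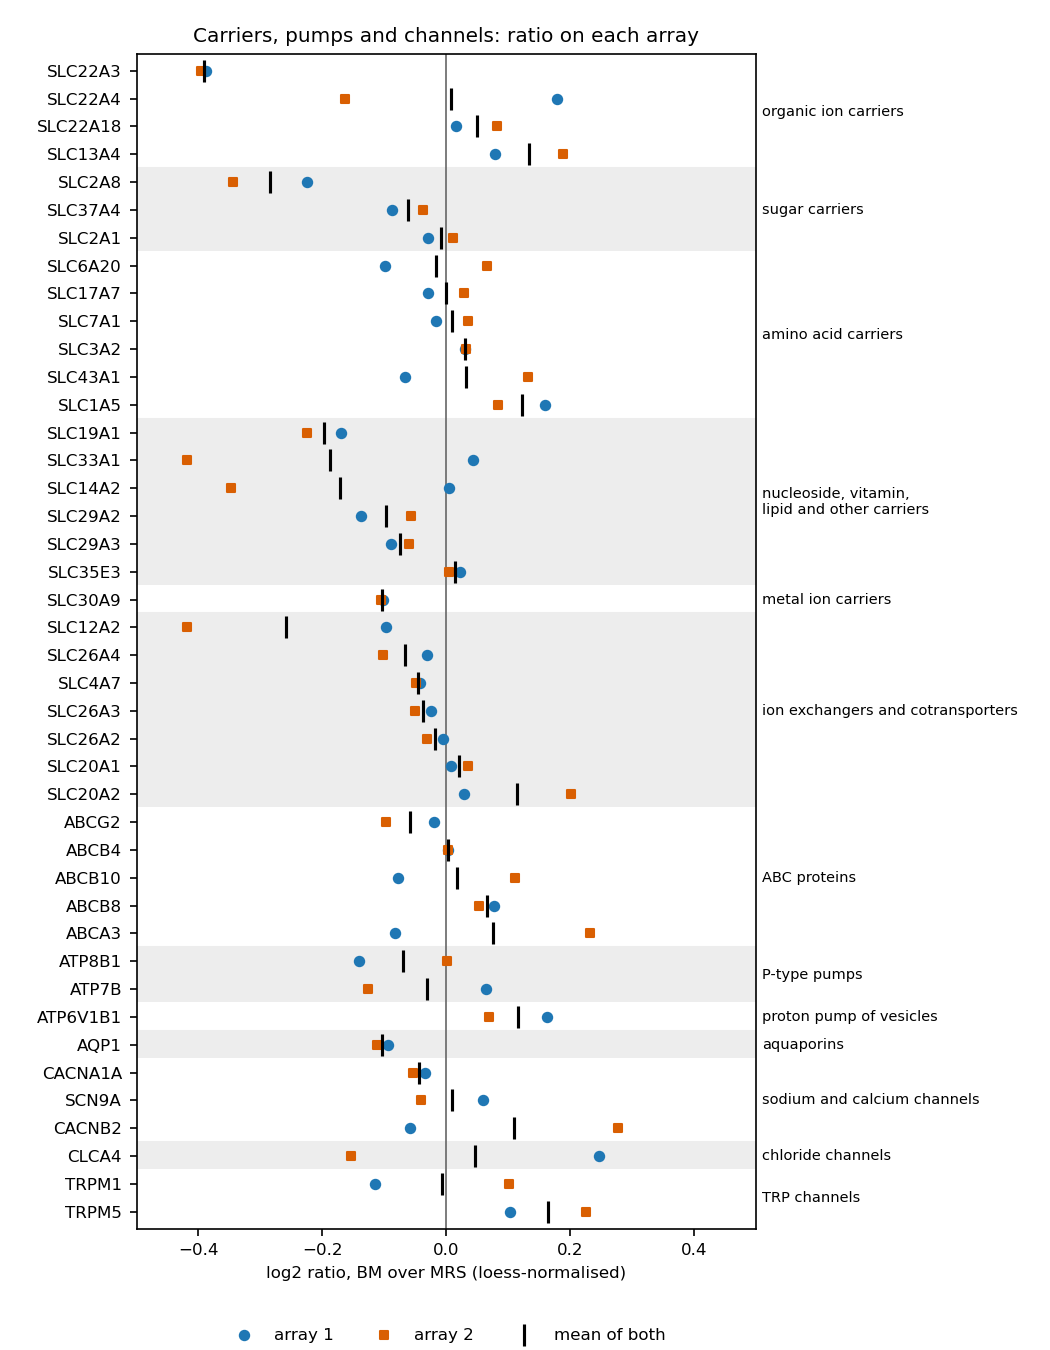
Log2 ratio of BM over MRS after loess (x axis) for the 42 genes (y axis), grouped by role; circles are array 1, squares array 2 and bars the mean of both. SLC22A3 stands at -0.39 and -0.40, whereas SLC2A8, SLC33A1, SLC12A2 and SLC14A2 reach below -0.3 on array 2 alone.

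SLC22A3 belongs to the organic ion carriers, which take up charged drugs, amines and metabolites. Its loess-normalised intensity, in arbitrary units, was 1367 in MRS 1 and 1045 in BM 1 on array 1, and 952.1 in MRS 2 and 723.9 in BM 2 on array 2. BM was the lower sample on each array, but the ranges of the groups overlapped because array 1 was brighter for this probe in both channels. The log2 ratio was -0.39 ± 0.0051 (SD, n = 2), or 0.762-fold, with a 95% interval of -0.53 to -0.25, and its adjusted p was 0.571 (limma). The 4 spots gave -0.37 and -0.41 on array 1 and -0.40 and -0.39 on array 2. The mean ratio was the lowest of all 1856 probes. With median centring in place of loess it was -0.44 with an adjusted p of 0.0286 (limma), the single call among the 42 under that setting, which called 1.83% of all probes.

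SLC2A8 is a glucose carrier that is found mostly inside the cell, and its intensity was 20253 and 17330 in MRS 1 and BM 1, and 12859 and 10124 in MRS 2 and BM 2. BM was again the lower sample on each array. Its log2 ratios of -0.22 and -0.35 gave -0.28 ± 0.085 (SD, n = 2), or 0.821-fold, with an adjusted p of 0.571 (limma). The value depended on the normalisation and was -0.11 when the arrays were median-centred in place of loess.

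SLC12A2 brings sodium, potassium and chloride into the cell together and supplies the chloride that secretory epithelia release. Its intensity was 304.6 and 284.7 in MRS 1 and BM 1, but 2624 and 1962 in MRS 2 and BM 2. Both samples of array 2 were thus brighter than those of array 1, by 8.61-fold in MRS and 6.89-fold in BM, and both groups had 1 low and 1 high sample. The log2 ratios of -0.097 and -0.42 gave -0.26 ± 0.23 (SD, n = 2), with an adjusted p of 0.722 (limma), so that most of the mean came from array 2.

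SLC19A1, the reduced folate carrier, which also takes up antifolate drugs, had intensities of 6580 and 5852 on array 1 and 9649 and 8254 on array 2 in MRS and BM. The log2 ratio was -0.20 ± 0.040 (SD, n = 2), or 0.872-fold, with a 95% interval of -0.34 to -0.055 and an adjusted p of 0.594 (limma). TRPM5 had 9209 and 9891 on array 1 and 5844 and 6836 on array 2, BM being the higher sample both times. Its ratio was 0.16 ± 0.087 (SD, n = 2), or 1.12-fold, with an interval of 0.0062 to 0.32 and an adjusted p of 0.736 (limma). For none of the 42 genes were the intensity ranges of the 2 groups apart, while BM lay wholly above MRS for 2.96% and wholly below for 3.5% of all probes.

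**Figure D2:**
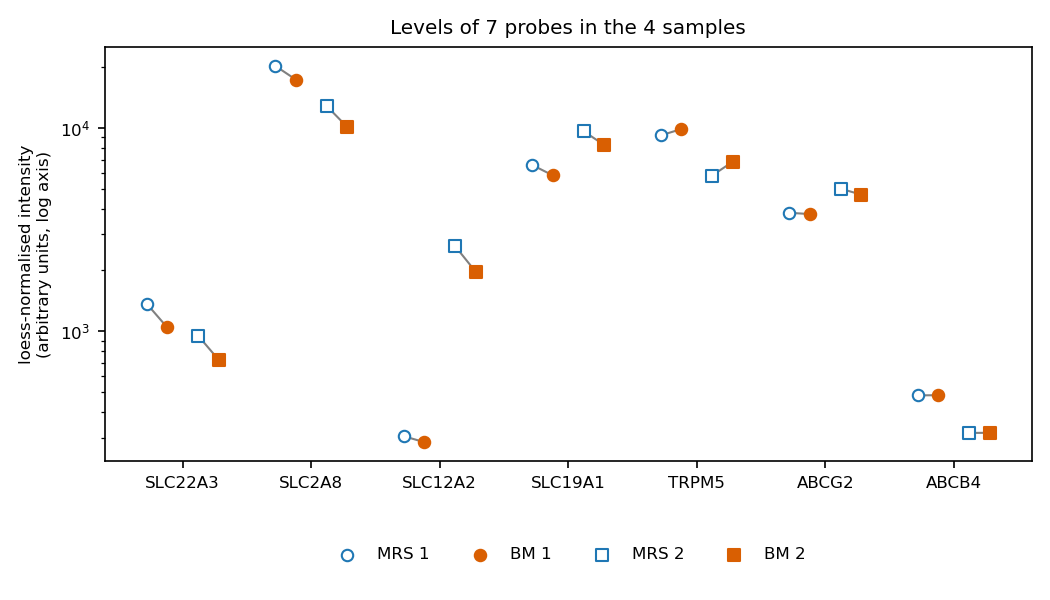
Loess-normalised intensity in arbitrary units (log axis) of 7 probes in MRS 1, BM 1, MRS 2 and BM 2; lines join the samples of 1 array, and heights of different probes cannot be set against each other. SLC22A3, SLC2A8, SLC12A2 and SLC19A1 step down from MRS to BM on both arrays, TRPM5 steps up and ABCB4 is flat.

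Promoters are shown for SLC2A8 and SLC12A2, the genes among these 5 with a single annotated start in the RefSeq promoter table of GRCh38.p14. Of the 42 genes 36 were found there, and SLC22A3 and TRPM5 were not. Each sequence holds the 250 bases before the start, 5′ to 3′ on the gene's strand. Capitals mark the motifs found, which were searched on both strands and may touch one another. The GC box was searched as GGGCGG and the CCAAT box by the letters of its name. The E-box was searched as CACGTG, the TATA box as TATAAA, and the core of the antioxidant response element as TGACNNNGC. The SLC2A8 window is chr9:127396919-127397168 on the plus strand and the SLC12A2 window is chr5:128083516-128083765 on the plus strand.
SLC2A8: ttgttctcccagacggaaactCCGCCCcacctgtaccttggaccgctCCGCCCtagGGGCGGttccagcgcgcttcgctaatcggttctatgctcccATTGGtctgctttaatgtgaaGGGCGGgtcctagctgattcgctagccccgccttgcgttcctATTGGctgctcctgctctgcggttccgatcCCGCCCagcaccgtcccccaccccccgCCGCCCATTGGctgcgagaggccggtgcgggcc
SLC12A2: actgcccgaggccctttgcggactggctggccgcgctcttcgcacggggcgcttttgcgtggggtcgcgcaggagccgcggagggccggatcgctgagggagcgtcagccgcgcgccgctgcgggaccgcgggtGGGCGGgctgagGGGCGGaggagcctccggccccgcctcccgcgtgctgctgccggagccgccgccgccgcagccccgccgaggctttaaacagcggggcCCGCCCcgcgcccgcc
The SLC2A8 window held 6 GC boxes and 3 CCAAT boxes, and in 1 place a GC box runs directly into a CCAAT box, both read on the other strand. The SLC12A2 window held 3 GC boxes, none of the other motifs, and 79.6% G and C with 40 CpG pairs, against 65.2% and 22 for SLC2A8 and a median of 57.6% and 10.0 over the windows of 27326 genes. In windows of the same length, 1 per gene at the start farthest upstream, the GC box occurred in 26 of the 36 genes (72.2%, against 42.2% of all genes), the CCAAT box in 18 (against 33.0%), and the E-box, the TATA box and the response element core in 5 each (13.9%, against 6.47%, 11.2% and 11.1%). All genes of the table, including those without a protein, make up that background, and a match of letters is not a binding site.

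The other genes filed under organic ion carriers did not follow SLC22A3. The group was formed by symbol family, and SLC13A4 carries sulfate, an inorganic ion. SLC13A4, a sulfate cotransporter, stood at 610.8 and 645.2 on array 1 and at 442.0 and 503.6 on array 2 in MRS and BM, a log2 ratio of 0.13 ± 0.077 (SD, n = 2). Its spots on array 1 disagreed, at -0.015 and 0.17, while those on array 2 gave 0.18 and 0.20. SLC22A18, which RefSeq now lists as SLC67A1, stood at 0.049 ± 0.047. SLC22A4, a carrier of ergothioneine and carnitine, had opposite signs, at 0.18 on array 1 and -0.16 on array 2, with a mean of 0.0074.

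The sugar carriers besides SLC2A8 had small ratios. SLC37A4, which brings glucose 6-phosphate into the endoplasmic reticulum, was lower in BM on both arrays, at -0.088 and -0.037. SLC2A1, the main glucose carrier of the plasma membrane in many tumour cells, had intensities of 167.2 and 163.8 in MRS 1 and BM 1 and of 186.7 and 188.1 in MRS 2 and BM 2. Those 4 values lie close together, with a mean log2 ratio of -0.0092 and a 95% interval of -0.15 to 0.13, and its raw signal came down to 2.03 times its local background in the sample where that was lowest.

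Amino acid carriers numbered 6, of which 2 were higher in BM on both arrays, none was lower on both and 4 had mixed signs. SLC1A5, the carrier of glutamine and other neutral amino acids, had 5391 and 6023 in MRS 1 and BM 1 and 3560 and 3772 in MRS 2 and BM 2. BM was the higher sample each time, and the ratio was 0.12 ± 0.054 (SD, n = 2), with an adjusted p of 0.770 (limma). SLC3A2, the heavy chain that carries light-chain amino acid exchangers to the surface, stood at 0.030 and 0.032. Mixed signs were found for the proline carrier SLC6A20 (-0.099 and 0.066), the branched-chain amino acid carrier SLC43A1 (-0.067 and 0.13), the arginine and lysine carrier SLC7A1 (-0.017 and 0.036) and the vesicular glutamate carrier SLC17A7 (-0.030 and 0.029).

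Among the 6 carriers of nucleosides, vitamins, lipids and other solutes, 3 were lower in BM on both arrays and 1 was higher. The nucleoside carriers SLC29A2 of the cell surface and SLC29A3 of the lysosome stood at -0.098 ± 0.057 and -0.075 ± 0.021 (SD, n = 2). SLC33A1, which moves acetyl-CoA into the endoplasmic reticulum, had 923.7 and 951.5 in MRS 1 and BM 1 and 4659 and 3486 in MRS 2 and BM 2. Its ratios were thus 0.043 on array 1 and -0.42 on array 2, a spread (SD 0.33, n = 2) larger than the mean of -0.19. The urea carrier SLC14A2 had the same form, with 0.0052 on array 1 and -0.35 on array 2. SLC35E3, of the nucleotide sugar carrier family, stood at 0.023 and 0.0047.

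Ion exchangers and cotransporters gave a shared sign on both arrays in all 7 genes, against 61.9% of the 42 genes and 53.1% of all probes. Of the 7 genes, 5 were lower and 2 higher in BM, with mean ratios from -0.26 (SLC12A2) to 0.11 (SLC20A2). SLC26A4, an exchanger of chloride, iodide and bicarbonate, stood at -0.067 ± 0.051 and the sodium bicarbonate cotransporter SLC4A7 at -0.046 ± 0.0046 (SD, n = 2). SLC26A3, the chloride-bicarbonate exchanger of the colon surface, stood at -0.037 ± 0.018. On array 2 its spots differed: the first had raw intensities of 180.0 (MRS) and 181.2 (BM) under local backgrounds of 575.6 and 524.9, and the second had 5349 and 4592. The mean and SD of SLC26A3 include the ratio of that first spot (-0.059), which lay below its background, beside -0.041 for the second. The sulfate carrier SLC26A2 stood at -0.0057 and -0.032 and turned positive with print-tip loess (0.016). On array 1 its spots had opposite signs, at 0.018 and -0.029, as did those of SLC20A1, at 0.037 and -0.023. The phosphate carriers SLC20A1 and SLC20A2 stood at 0.021 ± 0.020 and 0.11 ± 0.12 (SD, n = 2). For SLC20A2 array 1 gave 0.028 and array 2 gave 0.20, and median centring raised its mean to 0.30.

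The zinc carrier family gene SLC30A9 had nearly the same ratio on both arrays, -0.10 and -0.10, but not from spot to spot. Its first spot gave -0.21 and -0.14 on arrays 1 and 2 and its second 0.0025 and -0.064. The raw MRS intensity of the first spot was 457.1 on array 1, over a local background of 259.3, and 19435 on array 2, while the second had 5826 and 5938. The small SD of this gene between arrays (0.0017, n = 2) therefore averages spots that differ by more.

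The 5 ABC proteins use ATP to move lipids, drugs and other compounds, of which 2 gave ratios above 0 on both arrays and 1 gave ratios below 0. ABCG2, an efflux pump of the apical membrane that expels many drugs, had 3829 and 3775 in MRS 1 and BM 1 and 5032 and 4703 in MRS 2 and BM 2, a ratio of -0.059 ± 0.054 (SD, n = 2). ABCB4, which moves phosphatidylcholine into bile in the liver, had 483.7 and 484.7 on array 1 and 316.1 and 316.6 on array 2. The samples of each array were almost equal for it, and its ratio of 0.0026 had a 95% interval of -0.14 to 0.14. Its spots had opposite signs, at -0.0083 and 0.014 on array 1 and -0.046 and 0.050 on array 2. The mitochondrial ABCB8 stood at 0.077 and 0.053, and the mitochondrial ABCB10 at -0.077 and 0.11. ABCA3, a lipid transporter of lamellar bodies in the lung, stood at -0.082 and 0.23, with an SD of 0.22 (n = 2) around a mean of 0.075.

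Of the 3 pumps, both P-type pumps had opposite signs on the arrays. The copper pump ATP7B stood at 0.065 and -0.13, and ATP8B1, a flippase that keeps phospholipids on the inner leaflet, at -0.14 and 0.0016. ATP6V1B1, a subunit of the vacuolar proton pump of acid-secreting kidney cells, was higher in BM on both arrays, with 825.9 and 924.2 on array 1 and 441.0 and 462.3 on array 2. Its ratio was 0.12 ± 0.066 (SD, n = 2), with an adjusted p of 0.779 (limma).

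Among water and ion channels, the water channel AQP1 had 1816 and 1701 in MRS 1 and BM 1 and 2513 and 2326 in MRS 2 and BM 2. BM was the lower sample on both arrays, and the ratio was -0.10 ± 0.012 (SD, n = 2), with an adjusted p of 0.779 (limma). Of the voltage-gated channel genes of excitable cells, the calcium channel gene CACNA1A stood at -0.034 and -0.054. CACNB2, an auxiliary calcium channel subunit, stood at -0.059 and 0.28, and the sodium channel SCN9A at 0.060 and -0.041. CLCA4, a calcium-activated chloride channel regulator of the gut, had 41774 and 49572 on array 1 and 40758 and 36628 on array 2 in MRS and BM. Its ratios of 0.25 and -0.15 thus opposed each other, and the mean moved from 0.046 to -0.087 with print-tip loess and to 0.48 with median centring. The melanocyte and retina channel TRPM1 also had opposite signs, at -0.12 and 0.10, while TRPM5 did not.

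Over the whole set, 15 of 42 genes were lower in BM on both arrays (35.7%, against 28.4% of all probes) and 11 were higher on both (26.2%, against 24.6%), and the other 16 had mixed signs. Their log2 ratios had a median of -0.027 on array 1, of -0.015 on array 2 and of -0.0080 for the mean of both, against -0.0057 over all probes. The SLC genes had 12 of 27 lower (44.4%) and 7 higher (25.9%), and the pumps, ABC proteins and channels had 3 of 15 lower and 4 higher (26.7%). The median SD between arrays was 0.054 over the 42 genes, about the size of their median absolute mean ratio of 0.061. Across the 42 genes, which share both arrays, Pearson's r between the ratios of array 1 and array 2 was 0.289 and Spearman's rho 0.218, against 0.108 and 0.083 over all 1856 probes. Without SLC22A3 and SLC2A8 they were 0.0440 and 0.114 over 40 genes.

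**Figure D3:**
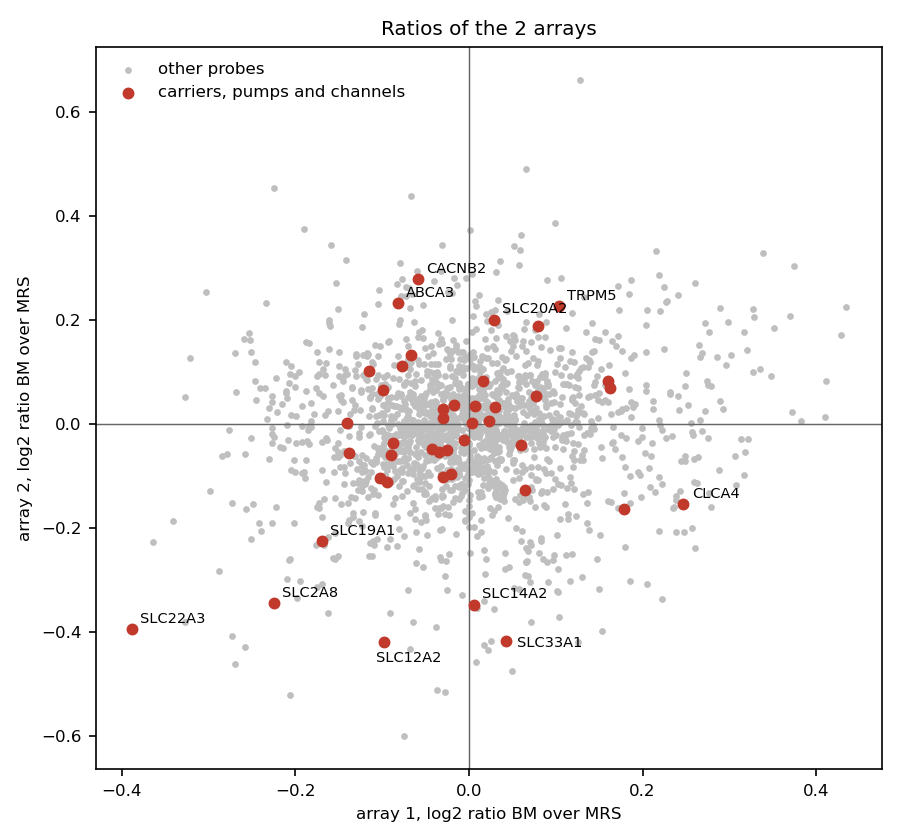
Log2 ratio of BM over MRS on array 1 (x axis) and array 2 (y axis) for the 42 transport genes (red) and the other probes (grey). SLC22A3 lies at the lower left edge, SLC2A8 and SLC19A1 follow it, and most of the 42 lie in the central cloud.

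Levels of 1 probe could differ widely between the arrays. For 8 of the 42 genes the MRS intensity differed by over 2-fold between array 1 and array 2 (19.0%, against 316 of 1856 probes), and the BM intensity differed in the same direction each time, whereas no ratio of BM over MRS on 1 array reached 1.5-fold. Besides SLC12A2, SLC30A9, SLC33A1 and SLC26A3 these were SCN9A (4.14-fold higher on array 2 in MRS and 3.87-fold in BM), SLC20A1 (3.83 and 3.90), ATP7B (2.55 and 2.23) and SLC22A4 (2.01 and 1.59). For SLC30A9 and SLC26A3 the difference came from the first spot alone, since the second spot of SLC26A3 had raw MRS intensities of 5977 and 5349 on arrays 1 and 2 and that of SLC30A9 the similar values given above. Log2 ratios of duplicate spots, in which the brightness of a spot cancels, had a median absolute difference of 0.023 on array 1 and 0.029 on array 2 over the 42 genes.

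The authors' deposited table scores each spot by a z ratio, which by its headers is a rescaled difference between the z scores of the log2 group means. A z ratio of -2 or lower in the authors' deposited table belonged to 8 of the 84 spots of these genes (9.52%, against 2.35% of all spots), and 0 had one of 2 or higher, against 2.48%. They were both spots of SLC12A2 (-3.36 and -3.30), SLC22A3 (-3.20 and -3.33), SLC33A1 (-2.47 for its second spot) and SLC2A8 (-2.41 and -2.09) in the authors' deposited table. SLC33A1 is among them although its loess ratio was above 0 on array 1. Its loess-normalised MRS intensity on array 2 was 5.04 times that on array 1, and the part of this in its z ratio was not tested. In the authors' deposited table TRPM5 had 1.66 and 1.53 and SLC19A1 -1.37 and -1.66, inside that threshold. The z ratio and the loess ratio come from the same 4 samples, so one is no independent support for the other.

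**Figure D4:**
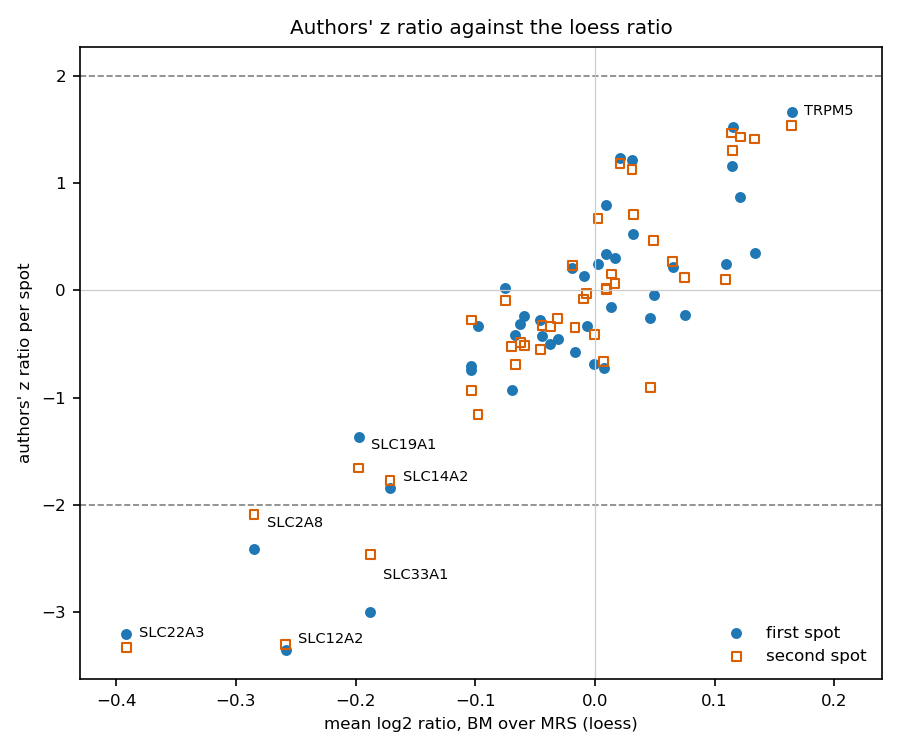
Authors' z ratio of each spot (y axis; dashed lines at -2 and 2) against the mean log2 ratio of BM over MRS after loess (x axis) for the 42 genes; filled circles are first spots and open squares second spots. SLC12A2, SLC22A3, SLC33A1 and SLC2A8 lie below -2 with both spots, and no gene lies above 2.

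Transport genes outside the naming rule, such as ligand-gated channels, gap junction proteins, carbonic anhydrases and channel regulators, gave 14 probes. Of these 4 gave ratios above 0 on both arrays (28.6%, against 24.6% of all probes) and 4 ratios below 0 (28.6%, against 28.4%). None had an unadjusted p under 0.05 in limma, against 6.57% of all probes. Their median mean ratio was -0.0057, equal to that of all probes. TAP1, a peptide transporter of the ABC superfamily, stood at 0.13 ± 0.056 and CA12, a carbonic anhydrase, at 0.087 ± 0.0037 (SD, n = 2). The gap junction gene GJB2 stood at 0.016 ± 0.019, FXYD3, a modulator of the sodium pump, at -0.10 ± 0.030, and MVP, the major vault protein, at -0.086 ± 0.011. CFTR, the chloride channel of secretory epithelia, had mixed signs, with a mean of -0.073 and an SD of 0.19 (n = 2).

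**Figure D5:**
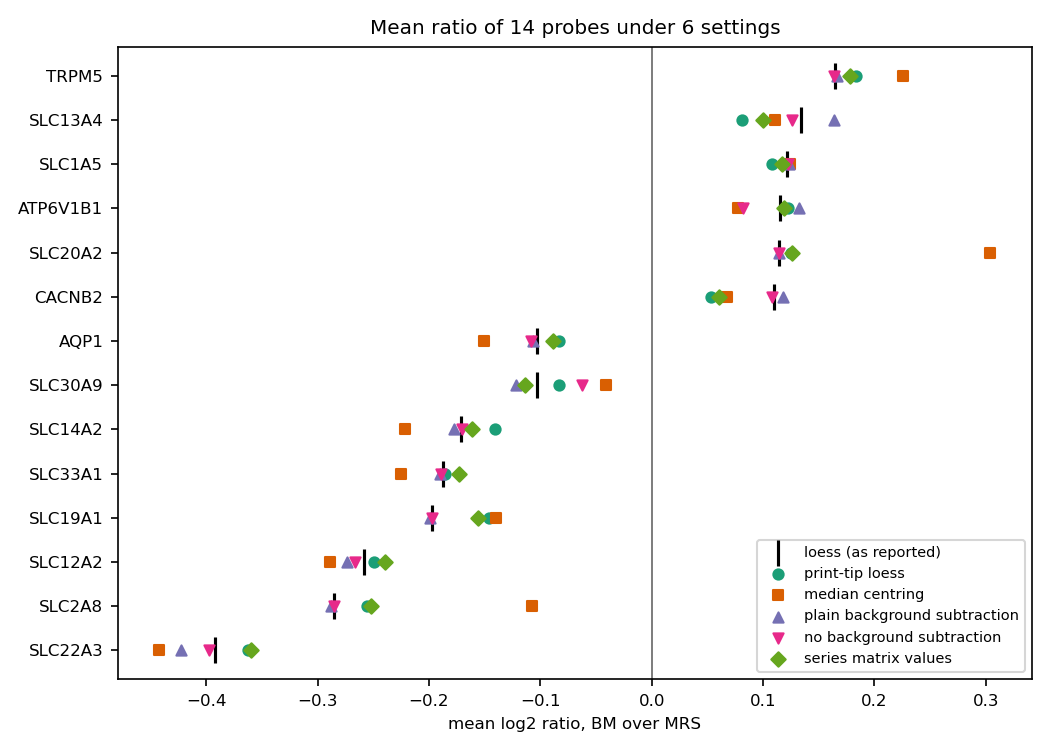
Mean log2 ratio of BM over MRS (x axis) for the 14 genes of the set with the largest absolute mean (y axis) under 6 ways of correcting background and normalising. SLC22A3 stays between -0.44 and -0.36, and median centring moves SLC2A8 to -0.11 and SLC20A2 to 0.30.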

How the data were processed

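The authors' spot tables give, per the file headers, mean raw intensity, local background and net intensity in each channel of 3840 spots, and a further deposited table gives a z ratio, a score per spot. Net intensity equalled raw minus background in MRS, while in BM the authors' values held a further factor that varied by spot (1st to 99th percentile from 0.843 to 1.40 on array 1). The loess ratios were computed without this factor, and whether it entered the z ratios and the series matrix values was not tested. R 4.2.2 is named in the submitters' processing notes, and no image software is given here. Here normexp (offset 50) was applied to the raw intensities, which were then normalised by loess within each array (limma 3.58.1, R 4.3.3), with the 54 control spots at weight 0 and then left out. Spots of 1 accession were averaged on the log2 scale, which gave 1856 probes. Intensities printed as loess-normalised hold the offset. Ratios within an array show unequal change, not amounts.

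An intercept was fitted to the 2 ratios per probe with limma (eBayes, two-sided, Benjamini-Hochberg over 1856 probes, 1 residual and 3.50 prior degrees of freedom, prior SD 0.0835). The pairing comes from the labels, since each array holds 1 MRS and 1 BM sample of 1 replicate number. Steps were tested on simulated data. Of the probes, 1701 were named by accession through RefSeq, 75 by symbol or synonym, 5 kept the file's name and 75 had none.

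Members, lists, roles and alternatives were chosen with earlier results of these data known. All members with an unadjusted p under 0.05 are named, then up to 12 per direction with 1 sign on both arrays in order of their smaller absolute ratio, then up to 3 per role and its brightest member, which gave 28, and the other 14 are named to account for every member.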

Additional observations from a re-analysis of the deposited data

How the results depend on the processing

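With print-tip loess, plain or no background subtraction, the series matrix values, dim probes left out, 1 probe per gene and no replicate block, 0 probes passed an adjusted p of 0.05 in limma, as in the reported fit, where 122 probes had an unadjusted p under 0.05. Median centring, which does not remove a dependence of the ratio on intensity, called 34 probes (1.83%), and 1 of the 42 genes was among them, SLC22A3 at -0.44 (adjusted p = 0.0286; over the other settings with a test its adjusted p ran from 0.325 to 1). Leaving out dim probes, keeping 1 probe per gene and dropping the replicate block leave each mean ratio unchanged by construction. Only the other settings could turn a sign. The 5 genes with an unadjusted p under 0.05 kept their sign in all 8 settings. The count of genes with such a p and a higher ratio was 4 with median centring and 0 with plain background subtraction and with no replicate block, against 1 as reported, and the count with a lower ratio was 0 with no replicate block, against 4. In that fit the difference between arrays enters the spread by construction. The share of all probes with such a p under these settings is not given here. The counts can therefore not be set against the 3.29% of all probes per direction in the reported fit. The median ratio of the 42 genes was -0.026 after print-tip loess and -0.020 from the series matrix, against -0.0080, and from -0.027 to -0.015 with 1 array left out at a time. Of the 42 genes, 28 kept their sign in all 8 settings, those that could not turn it included. The mean of 31 moved by over 1.5 times in at least 1 setting. Median centring turned ABCB4 to -0.016, ATP8B1 to 0.0013, SCN9A to -0.014, SLC22A4 to -0.043, SLC26A3 to 0.039, SLC2A1 to 0.042, SLC3A2 to -0.00094, SLC43A1 to -0.015 and TRPM1 to 0.23. Print-tip loess turned CLCA4 to -0.087, SLC22A4 to -0.028, SLC26A2 to 0.016, SLC35E3 to -0.020 and SLC7A1 to -0.0069. The series matrix values turned CLCA4 to -0.068, SLC22A4 to -0.029 and SLC26A2 to 0.020, no background subtraction turned SCN9A to -0.0051 and SLC7A1 to -0.0092, and plain subtraction turned SLC17A7 to 0.0015. Of the larger ratios, SLC30A9 came to -0.041 and CACNB2 to 0.053 at the settings nearest 0. The cause of these turns was not tested. Signal over background limits SLC2A1, SLC7A1 and SLC20A1, whose lowest raw signal was 2.03, 2.08 and 2.10 times the local background.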
